A study of Mus musculus and Rattus norvegicus with 96 samples.

Results

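Kdm1a and H2afx were followed in AML12 cells that had been exposed to formalin, and under the same symbols in mouse liver, rat liver and rat lung. Both genes were chosen by their values in the AML12 table, so those values are given here as a description, with no test. They are 2 of 24540 genes listed in that table, of which 2749 had any count and 1570 passed the filter on low counts, both members among them. The series held 96 libraries: 12 of AML12 cells, 48 of mouse liver, 18 of rat liver and 18 of rat lung. AML12 is a hepatocyte line derived from the liver of a male CD-1 mouse. The cells were treated for 10 minutes with vehicle (PBS) or with 0.006%, 0.03% or 0.1% neutral buffered formalin (NBF), 3 libraries a group. Lysates were read by TempO-Seq, in which pairs of detector oligos ligate on their target RNA and the ligated product is counted. Mouse liver came from 12 male B6C3F1 mice aged 10 to 11 weeks, which drank water without (Con, 6 mice) or with 600 ppm phenobarbital (PB, 6 mice) for 7 days. Pieces of each liver were kept frozen (FR), frozen and then placed in 70% ethanol (FR > OH), frozen and then fixed in 10% NBF for 18 to 24 hours (FR > FFPE), or fixed fresh in NBF (FFPE). All but FR pieces were embedded in paraffin. These were sequenced as ribosomal RNA-depleted total RNA. Rat liver (male F344) and rat lung (male WKY) came from vehicle control animals and were read by TempO-Seq as FR, FR > FFPE and FFPE tissue, the directly fixed lung having stood in formalin for 1 year.

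Kdm1a encodes a lysine-specific demethylase that removes methyl groups from lysine 4 of histone H3, using FAD as its cofactor. Each methyl group leaves as formaldehyde, and the enzyme works in corepressor complexes with CoREST proteins and histone deacetylases. H2afx encodes H2A.X, a variant of histone H2A whose tail is phosphorylated by the kinases ATM, ATR and DNA-PK around DNA double-strand breaks. The phosphorylated form, gamma-H2AX, is bound by MDC1, which brings further repair proteins to the break. Formaldehyde crosslinks proteins to DNA and is cleared in cells largely by the alcohol dehydrogenase encoded by Adh5. All values below are RNA levels, and neither enzyme activity nor phosphorylation was measured.

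The following 2 stretches of coding sequence were read from the mouse genome (GRCm38, GENCODE M21) and show the part of each protein that its function is known for. H2afx lies on the plus strand of chromosome 9, from 44334694 to 44336077, as a single exon of 1384 bases with 429 coding bases. Its last 60 coding bases, the stop codon included, are at chr9:44335134-44335193, with the serine and glutamine codons of the phosphorylated tail motif in capitals; the serine is codon 140 of 143 when the start codon is counted. Kdm1a lies on the minus strand of chromosome 4, from 136550540 to 136602723, and its transcript Kdm1a-203 has 19 exons and 2559 coding bases. The 60 bases shown, at chr4:136572257-136572316 in exon 6, hold the glycine-rich FAD-binding motif that begins at codon 286, with its 3 glycine codons in capitals.
H2afx: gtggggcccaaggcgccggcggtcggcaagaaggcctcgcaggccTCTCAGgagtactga
Kdm1a: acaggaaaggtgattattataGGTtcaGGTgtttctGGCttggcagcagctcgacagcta
The transcripts also differed in composition, with a GC content of 62.3% for H2afx and 51.8% for Kdm1a. Of the 1335 windows of 50 bases in the H2afx transcript, 129 (9.66%) occurred word for word in the transcript of some other gene, 43 genes in all. All 129 lay in the coding part, where they made up 33.9% of its 380 windows. None of the 2959 windows of Kdm1a was shared. Reads of the mouse liver libraries on the coding part of H2afx could therefore belong to other histone genes, and the target sites of the TempO-Seq oligos were not analysed here.

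Library totals were 444288 to 2325990 counts in AML12 cells, 4952797 to 13702672 in mouse liver, 139475 to 3970187 in rat liver and 226751 to 2505947 in 17 of the rat lung libraries. The remaining lung library, frozen replicate 54, held 12 counts and was left out. Of the 4 AML12 libraries under 1000000 counts, 1 was vehicle, 2 were 0.006% NBF and 1 was 0.03% NBF. Of 19 hepatocyte markers, 9 or 10 had counts in each AML12 group, among them Hnf4a, Ttr and the keratins Krt8 and Krt18, which other simple epithelia also express. Albumin (Alb) and 7 others (Apoa2, Apob, Apoh, Serpina1a, Tat, Pck1 and Cps1) were listed at 0 in all 12 libraries. Only 2749 of the 24540 genes listed had any count, so a 0 may mean that a gene was not assayed. Mesenchymal markers summed to 610 to 1057 CPM (counts per 1000000), mostly Vim, and leukocyte markers to at most 16.3 CPM. The labels do not say that replicate libraries came from separate cultures, so their spread may be technical.

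Kdm1a stood higher at 0.1% NBF than in any other AML12 library, and its level at the lower doses overlapped the vehicle. Levels are in CPM with library sizes scaled by the trimmed mean of M values (TMM). In vehicle, Kdm1a was at 10.0, 6.12 and 5.12 CPM, from 5, 11 and 10 counts. At 0.006% NBF the libraries held 16.3, 3.52 and 8.12 CPM, from 7, 2 and 19 counts. At 0.03% NBF they held 17.3, 10.1 and 5.36 CPM, from 9, 18 and 6 counts. The 9 libraries of these 3 groups thus rested on few counts each, and their ranges overlapped throughout. At 0.1% NBF Kdm1a was at 22.1, 40.9 and 45.4 CPM, from 55, 63 and 77 counts. The lowest of these 3 libraries exceeded the highest of the other 9. The group means were 7.09 ± 2.59 CPM in vehicle, 9.32 ± 6.49 at 0.006%, 10.9 ± 5.99 at 0.03% and 36.1 ± 12.4 at 0.1% (SD, n = 3 each). The log2 ratio of the means to vehicle was 0.40, 0.62 and 2.35 in the order of dose, the last being 5.10-fold. Since CPM is a share of a library, a higher level per cell and a lower amount of the other RNAs cannot be told apart.

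Adding the counts of a group gave 26 Kdm1a counts in vehicle, or 6.12 CPM with a 95% Poisson interval of 4.00 to 8.97. The 28 counts at 0.006% gave 8.39 CPM (5.58 to 12.1) and the 33 counts at 0.03% gave 9.63 CPM (6.63 to 13.5). At 0.1% the 195 counts gave 34.1 CPM (29.5 to 39.2). Kdm1a was chosen by these values, so the intervals are no test of a difference between groups. These intervals cover counting error only. They leave out the spread between libraries, which at 0.006% NBF ran from 3.52 to 16.3 CPM. Without the 4 libraries under 1000000 counts, Kdm1a averaged 5.73 CPM in vehicle (n = 2) and 36.9 CPM at 0.1% (n = 3), a log2 ratio of 2.69. Leaving out each library in turn gave log2 ratios at 0.1% between 2.14 and 2.66.

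H2afx moved the other way and rested on far more counts. In vehicle it was at 2970, 2784 and 2202 CPM. At 0.006% NBF the values were 2826, 3302 and 1732 CPM, and at 0.03% NBF they were 2195, 2724 and 2182 CPM. These 3 groups overlapped, and the library at 1732 CPM was the lowest of the 9. At 0.1% NBF H2afx was at 1158, 738 and 816 CPM, below all 9. The group means were 2652 ± 401 CPM in vehicle, 2620 ± 805 at 0.006%, 2367 ± 309 at 0.03% and 904 ± 224 at 0.1% (SD, n = 3 each). The log2 ratios of the means to vehicle were -0.02, -0.16 and -1.55, the last being 2.93-fold lower. Leaving out each library in turn gave values at 0.1% between -1.77 and -1.44. Without the 4 shallow libraries, the ratio at 0.1% was -1.46, from means of 2543 CPM in vehicle and 926 CPM at 0.1%.

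**Figure D1:**
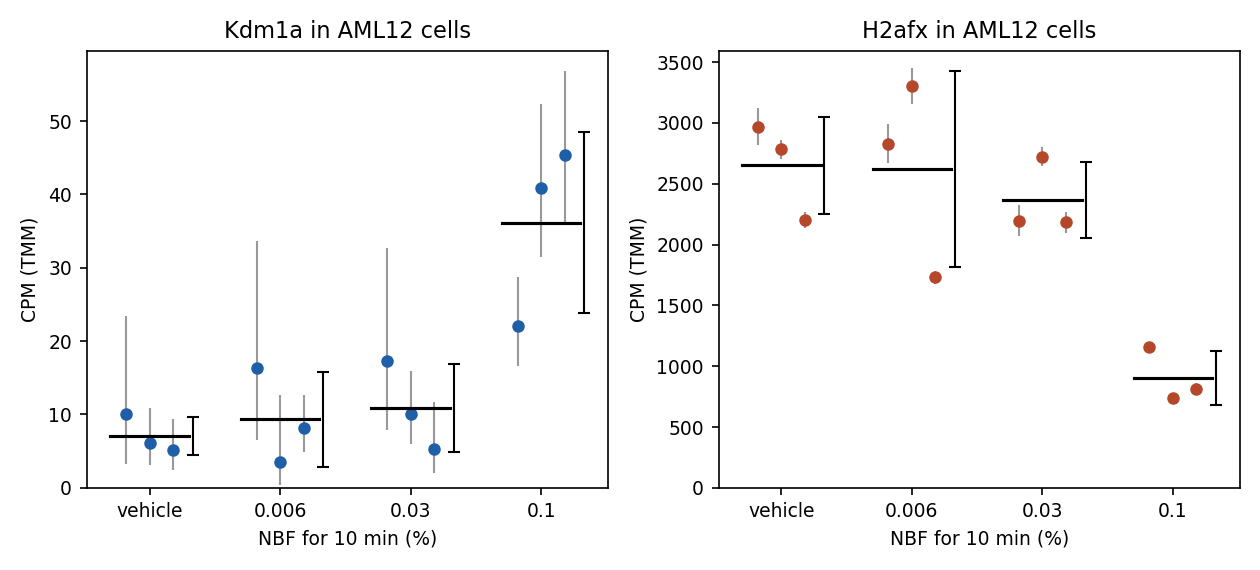
Kdm1a (left) and H2afx (right) in the 12 AML12 libraries by NBF dose in percent, in CPM with TMM library sizes on linear axes from 0. Points are libraries with 95% Poisson intervals, black lines the group mean and the capped bars ± 1 SD (n = 3). All 3 libraries at 0.1% lie at or above 22.1 CPM for Kdm1a and at or below 1158 CPM for H2afx, while the other groups overlap.

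The ratio of the 2 genes within a library does not depend on the library size. It is used here only between groups, since the efficiency of each oligo pair is unknown and the levels of different genes cannot be set against each other. Per count of Kdm1a, vehicle libraries held 296, 455 and 430 counts of H2afx. The ratio was 173, 938 and 213 at 0.006% NBF and 127, 270 and 407 at 0.03% NBF. At 0.1% NBF it was 52.4, 18.0 and 18.0, below all other libraries. Within the 0.1% group the library with the least Kdm1a, replicate 93, was also the one with the most H2afx. It was the deepest AML12 library, at 2325990 counts.

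In the fit across all 1570 genes of the AML12 table, edgeR called 303 genes at 0.1% NBF against vehicle (19.3%), 168 higher (10.7%) and 135 lower (8.6%). With library totals in place of TMM, the split was 294 higher and 70 lower, and the median of all genes moved from -0.00 to 0.20. At 0.006% and 0.03% NBF no gene was called (0 in each) with an adjusted p under 0.05 by edgeR or by DESeq2, while 28 and 62 genes had an unadjusted edgeR p under 0.05. Among the fitted log2 fold changes at 0.1%, that of Kdm1a, 2.48, had no gene above it, and that of H2afx, -1.55, had 4 genes below it. Both genes were chosen by their values in these libraries, so these ranks are a description and no test. With library totals the log2 ratios of the means were 2.56 for Kdm1a and -1.36 for H2afx. The genes called higher had a median GC content of 45.0% and a median transcript length of 3944 bases, against 56.0% and 1756 bases for those called lower and 49.9% and 2835 bases for all tested. H2afx is thus GC-rich and short like the genes called lower. Kdm1a has a GC content above the median of those called higher. The part of GC content and length in these values was not tested.

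Among the genes with the smallest p at 0.1% NBF other than the members, Mfsd10 and Hist1h3h fell. Mfsd10, a transporter of the major facilitator family, went from 369 ± 54.1 to 163 ± 15.7 CPM (SD, n = 3 each), a log2 change of -1.17 (SE 0.17, edgeR adjusted p = 0.00107). Hist1h3h, a replication-dependent histone H3 gene, went from 1209 ± 160 to 586 ± 112 CPM, a log2 change of -1.04 (SE 0.16, edgeR adjusted p = 0.00116).

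Over the 12 AML12 libraries, the genes whose log2 CPM followed Kdm1a most closely among 1409 genes with a mean of at least 10 CPM were Bzw2 (Pearson r 0.95, Spearman rho 0.91), Tpi1 (0.94 and 0.95) and Eif4b (0.92 and 0.85). Tpi1 encodes the glycolytic triosephosphate isomerase and Eif4b a translation initiation factor. Those closest to H2afx were 3 histone H3 genes, Hist1h3c (0.99 and 0.97), Hist2h3b (0.99 and 0.95) and Hist1h3h (0.98 and 0.94). Between Kdm1a and H2afx themselves r was -0.81 and rho -0.62. These values describe 12 libraries that form a group of 3 at 0.1% and a group of 9 at the other doses, and genes measured in the same library share its depth.

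Most other members of the Kdm1a complexes had no count in any AML12 library, and whether they were assayed is not known here. Of 20, 5 had a count and 4 were tested at 0.1% NBF. Of these, 2 rose and 1 fell, with a median log2 fold change of 0.34 against -0.00 for all genes. Of all genes, 10.7% were called higher and 8.6% lower. Zmym2, a zinc finger subunit of these complexes, rose from 686 ± 36.2 to 1254 ± 318 CPM, a log2 change of 0.87 (SE 0.20, edgeR adjusted p = 0.00551). Hdac2, the histone deacetylase subunit, rose from 206 ± 16.1 to 330 ± 32.5 CPM, a log2 change of 0.68 (SE 0.16, adjusted p = 0.00679). With library totals the same counts were 2 higher and 0 lower. Of 22 other histone demethylases, 4 were tested and 3 rose, with a median of 0.63. Kdm5b and Kdm5a, which remove methyl groups from lysine 4 of histone H3 by another mechanism than Kdm1a, rose by log2 fold changes of 0.89 (SE 0.19, adjusted p = 0.0034) and 0.62 (SE 0.14, adjusted p = 0.00424). Of 14 subunits of the opposing H3 lysine 4 methyltransferases only Dpy30 was tested, at a log2 change of -0.02 (SE 0.14, adjusted p = 0.953).

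Of 10 other replacement histone variants, 3 were tested and 1 fell, with a median log2 fold change of -0.26. H2afz, which encodes H2A.Z, fell from 136 ± 47.6 to 62.2 ± 7.05 CPM, a log2 change of -1.07 (SE 0.23, edgeR adjusted p = 0.00405). H2afv, the second H2A.Z gene, was at -0.26 (SE 0.16, adjusted p = 0.272). Of 35 kinases and readers of the H2A.X mark, 10 were tested, with 1 higher, 1 lower and a median of 0.24. These counts were near the shares of all genes, of which 10.7% were called higher and 8.6% lower. Trp53bp1, a reader of damaged chromatin, rose by 0.64 (SE 0.22, adjusted p = 0.0468). With library totals, 2 members of this list were higher and 1 lower.

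Of 23 genes of formaldehyde clearance and crosslink repair, 6 were tested and 2 rose, with a median of 0.19. For this list and the next 2, the shares of all genes called were 10.7% higher and 8.6% lower. Adh5 rose from 153 ± 10.4 to 243 ± 17.7 CPM, a log2 change of 0.67 (SE 0.16, edgeR adjusted p = 0.00732). Fancd2, of the Fanconi anaemia crosslink repair pathway, rose by 0.92 (SE 0.31, adjusted p = 0.0465). Of 18 p53 and damage targets, 15 were tested, with 1 higher, 3 lower and a median of -0.28. Phlda3, an inhibitor of Akt, fell by 0.87 on the log2 scale (SE 0.14, adjusted p = 0.00122), and Rrm2b, the p53-induced ribonucleotide reductase subunit, rose by 0.83 (SE 0.18, adjusted p = 0.00446). Of 20 proliferation genes, 17 were tested, none higher and 2 lower, with a median of -0.27. The 2 were Mcm2, of the replicative helicase, at -0.66 (SE 0.16, adjusted p = 0.00903), and the mitotic kinase gene Plk1 at -0.88 (SE 0.22, adjusted p = 0.00974). With library totals, 2 p53 targets were higher and 2 lower, and 1 proliferation gene was higher and 2 lower. At 0.006% and 0.03% NBF no gene of these 8 lists was called by edgeR, as for all genes.

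**Figure D2:**
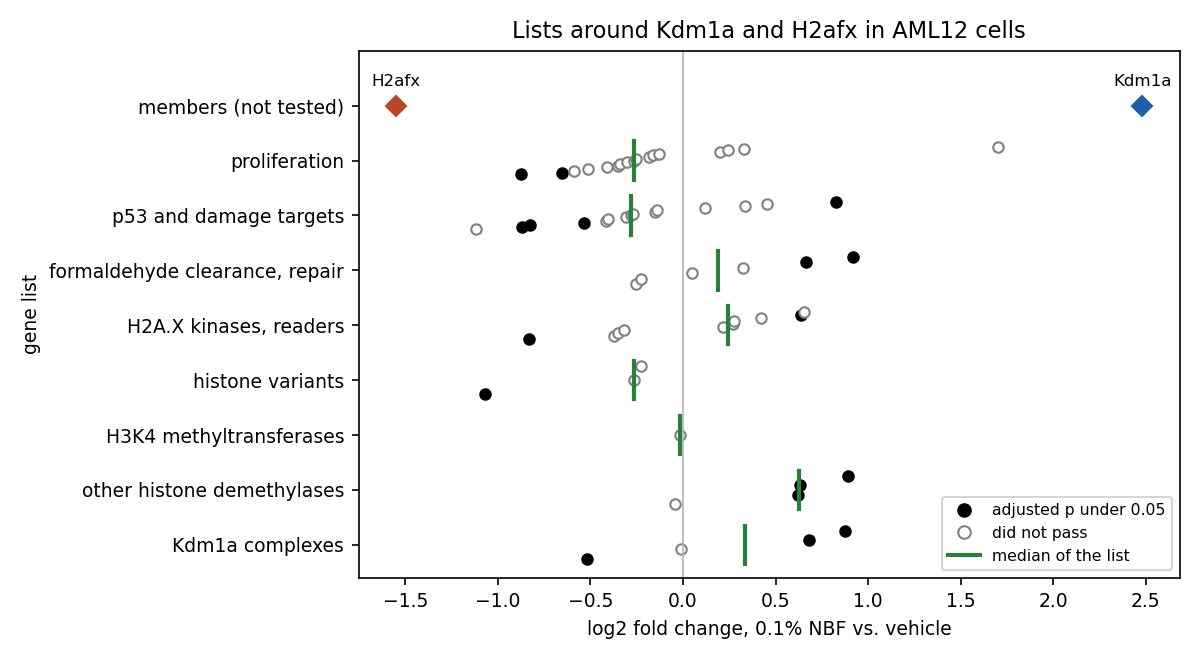
Log2 fold change at 0.1% NBF vs. vehicle of each tested gene in 8 lists around the members, with a green bar at each list's median. Filled points passed an adjusted p under 0.05 and open points did not. The diamonds give the fitted values of Kdm1a (2.48) and H2afx (-1.55), which were not tested and lie outside the range of every list shown. Both genes were chosen by their AML12 values.

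The hepatocyte markers were not tested as a list. Their summed level, from 10 of 19 markers with counts, was 25209 to 28324 CPM in vehicle and 16136 to 26980 CPM at 0.1%. Most of it was Krt18, at 20715 to 23878 CPM in vehicle and 13723 to 23400 CPM at 0.1%. The ranges of the sum and of Krt18 overlapped. Those of Krt8 did not, at 3312 to 4182 CPM in vehicle and 2116 to 2790 CPM at 0.1%. Hnf4a, Ttr and Afp had overlapping ranges, with lower medians at 0.1%. The part of these markers in the values of Kdm1a and H2afx was not tested. Lung epithelial markers were listed at 0 in all 12 libraries, where a 0 may mean that a gene was not assayed.

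Mouse liver gave values of both genes in libraries other than those they were chosen by, in tissue fixed for hours rather than cells exposed for minutes. H2afx was higher in every processed preparation than in FR and above the median change of all genes, except that per total reads it was not higher in FFPE. Kdm1a lay near or below that median. CPM here is relative to the counts on the 13360 genes kept. Kdm1a averaged 14.6 ± 1.31 CPM in FR, with a lowest, median and highest library of 12.1, 14.7 and 16.6. It averaged 16.3 ± 1.19 in FR > OH (13.9, 16.3 and 18.1), 18.0 ± 2.93 in FR > FFPE (15.0, 17.9 and 25.0) and 16.9 ± 2.30 in FFPE (13.4, 16.6 and 20.1), with n = 12 and SD throughout. The ranges of the 4 preparations overlapped. H2afx averaged 4.42 ± 1.72 CPM in FR (2.92, 3.75 and 8.19), 7.48 ± 2.10 in FR > OH (4.45, 7.44 and 11.9), 7.35 ± 2.25 in FR > FFPE (4.2, 6.82 and 11.04) and 6.86 ± 2.27 in FFPE (3.83, 6.84 and 10.95). Its ranges overlapped too. H2afx rested on 20 to 118 counts a library and Kdm1a on 75 to 251.

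Between preparations most genes were called, so a call alone says little. In FFPE vs. FR edgeR called 70.3% of genes, 53% higher and 17.3% lower. In FR > FFPE vs. FR the share was 65.4%, with 56.5% higher and 8.93% lower, and in FR > OH vs. FR it was 55%, with 41.7% higher and 13.3% lower. The median log2 fold change of all genes was 0.32, 0.34 and 0.18 in the same order. H2afx rose by 0.66 in FFPE (SE 0.16, edgeR adjusted p = 0.00028) and by 0.76 in FR > FFPE (SE 0.15, adjusted p = 3.03e-05). Its rise in FR > OH was 0.79 (SE 0.15, adjusted p = 1.95e-05). Relative to the median of all genes these were 0.34, 0.42 and 0.61. Kdm1a rose by 0.21 in FFPE (SE 0.07, adjusted p = 0.00935), 0.30 in FR > FFPE (SE 0.07, adjusted p = 0.000242) and, in FR > OH, by 0.17 (SE 0.07, adjusted p = 0.0431). Relative to the median it was at -0.11, -0.04 and -0.02. FFPE and FR > FFPE differed in 29.2% of genes, and between them H2afx was at -0.09 (SE 0.16, adjusted p = 0.706) and Kdm1a at -0.09 (SE 0.07, adjusted p = 0.379). The 3 comparisons with FR share their FR libraries.

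**Figure D3:**
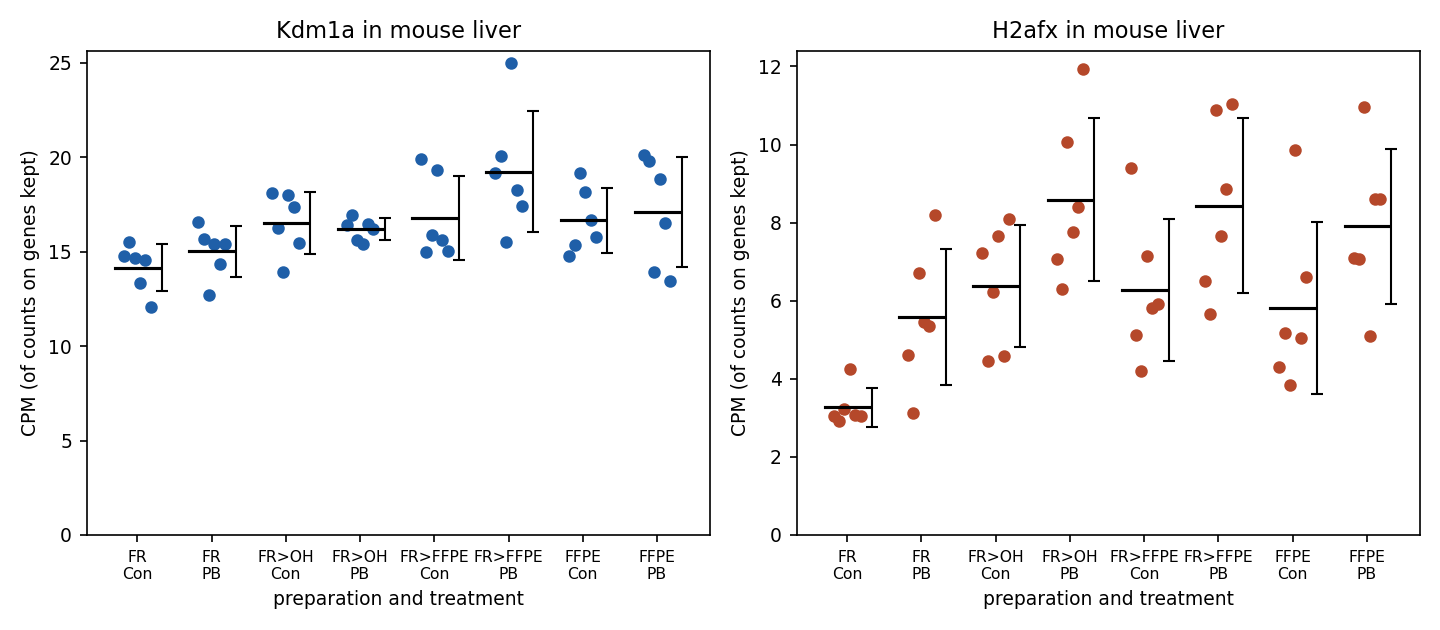
Kdm1a (left) and H2afx (right) in 48 mouse liver libraries by preparation and treatment, in CPM of counts on genes kept, on linear axes from 0. Points are libraries, black lines the group mean and capped bars ± 1 SD (n = 6). The 6 FR Con libraries hold the lowest H2afx level as a group, 2.92 to 4.26 CPM.

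The sign of the fold change depended on the library size for Kdm1a, and for H2afx in FFPE. The total reads of a library were inferred from the log2 CPM deposited by the authors. The share of all reads that fell on genes was 48.5% ± 1.76 in FR, 38.7% ± 2.84 in FR > OH, 37.2% ± 2.14 in FR > FFPE and 25.1% ± 1.86 in FFPE (SD, n = 12). Per total reads, all genes had a median of -0.63 in FFPE vs. FR, and H2afx was at -0.29 (SE 0.16, edgeR adjusted p = 0.0961), or 0.33 above that median. With the mouse as a replicate block, H2afx per total reads was at -0.29 with an adjusted p of 0.00869 and so was called lower. Per total reads Kdm1a was at -0.75 (SE 0.07, adjusted p = 1.61e-13), 0.12 below it. With TMM, H2afx rose by 0.38 in FFPE (adjusted p = 0.0385), 0.46 in FR > FFPE and 0.62 in FR > OH, while Kdm1a was at -0.07, -0.01 and -0.01 and did not pass. A change of library size shifts all genes of a library alike, so the distance of a gene from the median of all genes is nearly kept by construction. The library titles carry an L number, read here as the sequencing lane, which the labels do not state. By it FFPE and FR libraries shared only lane 2. With lane as a term in a fit of these libraries alone, H2afx in FFPE was at 1.08 (SE 0.31, edgeR adjusted p = 0.00681) and Kdm1a at -0.07 (SE 0.16, adjusted p = 0.742). The only FFPE libraries in lane 2 were PB replicates 75C and 80B, whose FR libraries held 5.35 and 8.19 CPM of H2afx. The FR PB libraries in lane 2 were 18B and 18D, at 4.61 and 3.13 CPM. Differences between mice thus enter this fit and cannot be told apart from lane. Hepatocyte markers summed to 95398 to 137977 CPM in FR and 57710 to 73150 CPM in FFPE, and their part in these values was not tested.

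**Figure D4:**
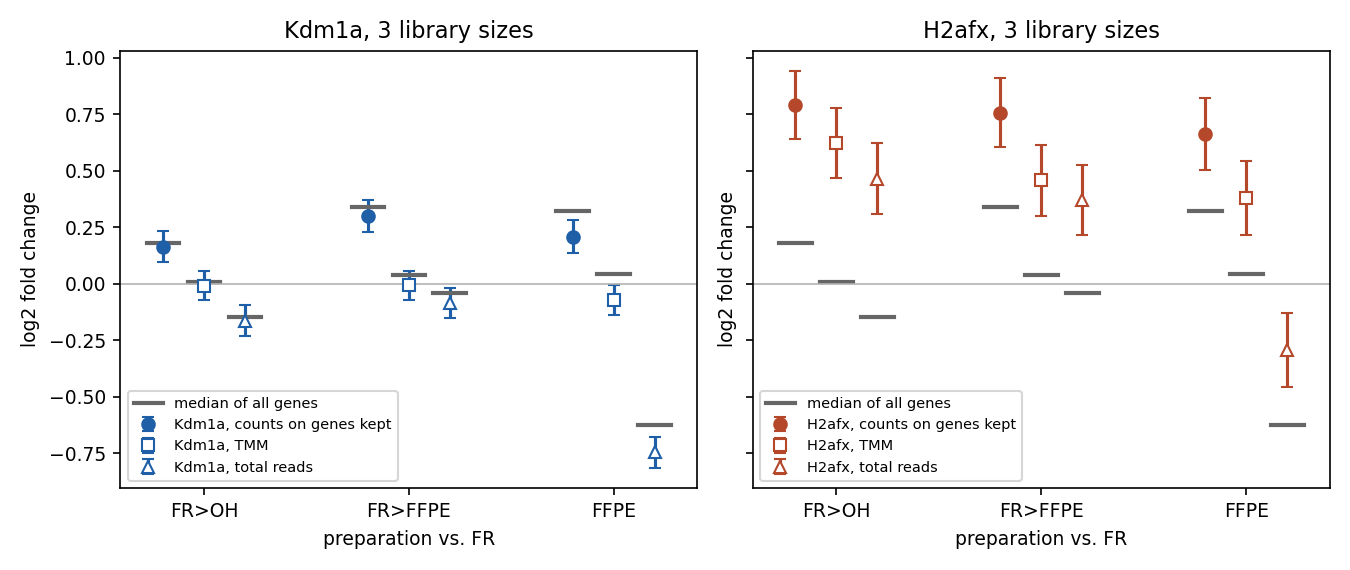
Log2 fold change ± SE of Kdm1a (left) and H2afx (right) in each preparation vs. FR under 3 library sizes, with grey bars at the median of all genes. H2afx lies above the median in all 9 fits shown and Kdm1a at or below it, while both fall below 0 in FFPE per total reads.

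Each mouse gave all 4 preparations, so the levels were also compared within mice. H2afx was higher than in FR in 11 of 12 mice in FFPE (median log2 ratio 0.69), 12 of 12 in FR > FFPE (0.74) and 12 of 12 in FR > OH (0.63). An exact Wilcoxon signed-rank test (two-sided, Holm adjusted over 3 preparations) gave p = 0.00146 for each. Kdm1a was higher in 9 of 12 mice in FFPE (0.24, exact Holm adjusted p = 0.0137), 11 of 12 in FR > FFPE (0.30, p = 0.00293) and 9 of 12 in FR > OH (0.16, p = 0.0137). With TMM library sizes, Kdm1a was higher in 5, 6 and 6 of 12 mice, with exact adjusted p of 0.904, 1 and 1. H2afx with TMM was higher in 9, 12 and 12 of 12 mice, with exact adjusted p of 0.021, 0.00146 and 0.00146. Per total reads the direction in FFPE turned, with H2afx higher in 3 of 12 mice (median log2 ratio -0.22, exact adjusted p = 0.0122) and Kdm1a in 0 of 12 (-0.73, exact adjusted p = 0.00146). In FR > FFPE and FR > OH, per total reads, H2afx was higher in 11 and 12 of 12 mice (exact adjusted p = 0.00195 and 0.00146) and Kdm1a in 4 and 2 of 12 (exact adjusted p = 0.204 and 0.0322).

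H2afx was higher with PB in frozen liver, and Kdm1a did not pass in any preparation. Treatment was partly confounded with the L number of the library titles, read here as the sequencing lane, as given below. In FR, H2afx was at 3.27 ± 0.50 CPM in Con and 5.57 ± 1.74 CPM in PB (SD, n = 6 each). The lowest, median and highest library were 2.92, 3.07 and 4.26 CPM in Con and 3.13, 5.40 and 8.19 CPM in PB, so the groups overlapped at their edges. This was a rise of 0.77 on the log2 scale (SE 0.22, edgeR adjusted p = 0.0171), in a comparison in which 8.45% of genes were called. It was 0.45 in FFPE (SE 0.23, adjusted p = 0.272, 6.62% called), 0.45 in FR > FFPE (SE 0.21, adjusted p = 0.233, 7.24% called) and, for FR > OH, 0.44 (SE 0.21, adjusted p = 0.183, 12.2% called). The H2afx levels behind these were 5.81 ± 2.20 and 7.90 ± 1.98 CPM in FFPE, 6.27 ± 1.81 and 8.43 ± 2.24 CPM in FR > FFPE, and 6.37 ± 1.56 and 8.58 ± 2.09 CPM in FR > OH, Con before PB. The PB effect on H2afx was not shown to differ between FR and the other preparations, with differences of -0.32, -0.32 and -0.33 (SE 0.32, 0.30 and 0.30) and adjusted p of 1 for FFPE, FR > FFPE and FR > OH. No gene was called in these difference tests (0 of 13360 by edgeR and by DESeq2), and 463, 288 and 303 genes had an unadjusted edgeR p under 0.05. These tests took the libraries as independent, although each mouse gave every preparation. With the mouse as a replicate block, edgeR called 1, 0 and 37 genes in the same order, neither member among them. Under the block, 1144, 1168 and 1117 genes had an unadjusted edgeR p under 0.05. Kdm1a with PB was at 0.08, 0.04, 0.20 and -0.03 in FR, FFPE, FR > FFPE and FR > OH, with adjusted p of 0.687, 0.885, 0.26 and 0.885. By the L number, all FR Con libraries were in lane 2, and FR PB libraries were in lanes 2 and 3. In lane 2, PB replicates 18B and 18D held 4.61 and 3.13 CPM of H2afx, and the PB libraries of lane 3 held 5.35 to 8.19 CPM. In FR > FFPE all Con libraries were in lane 3 and all PB libraries in lane 4. There 18B and 18D were again the lowest with PB, at 6.50 and 5.65 CPM. The part of lane in the PB comparisons was not tested.

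Proliferation genes rose in the same PB livers. In FR 17 of 20 were called higher, with a median log2 fold change of 1.90 against 0.00 for all genes. Cdc20, an activator of the anaphase-promoting complex, rose by 3.72 (SE 0.58, edgeR adjusted p = 7.26e-06), and cyclin A2 (Ccna2) by 2.47 (SE 0.49, adjusted p = 0.00049). For FFPE the count was 11 of 20, for FR > FFPE 15 and for FR > OH 17. The part of proliferating cells in the level of H2afx was not tested. In FR with PB, 0 of 17 tested members of the Kdm1a complexes were called, and 1 of 21 other demethylases fell, Kdm4a, by 0.33 on the log2 scale (SE 0.10, adjusted p = 0.026). Among 9 histone variants 2 rose, H3f3b by 0.32 (SE 0.09, adjusted p = 0.0145) and H2afz by 0.49 (SE 0.14, adjusted p = 0.0195).

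In FFPE vs. FR the lists around Kdm1a lay above the median of all genes. Of 17 tested members of its complexes 13 rose and 2 fell, with a median of 0.80 against 0.32. Mta1, a subunit of the NuRD deacetylase complex, rose by 1.20 (SE 0.06, edgeR adjusted p = 2.72e-21) and Phf21a, a reader of unmethylated H3 lysine 4, by 1.36 (SE 0.08, adjusted p = 3.79e-19). Of 21 other demethylases 19 rose and none fell (median 0.55), and of 14 H3 lysine 4 methyltransferase subunits 12 rose and 1 fell (median 0.83). Per total reads these lists held 3 higher and 8 lower, 2 higher and 12 lower, and 6 higher and 7 lower, with medians of -0.16, -0.39 and -0.13 against -0.63 for all genes. Of all 13360 genes, 876 were called higher and 9448 lower per total reads. Kdm1a, at 0.11 below the median of all genes in the main fit, was thus lower than the medians of all 3 lists.

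The lists around H2afx were nearer to the median of all genes or below it in FFPE vs. FR. Of 9 other histone variants 1 rose and 5 fell, with a median of -0.17. H3f3a, a histone H3.3 gene, fell by 1.15 on the log2 scale (SE 0.06, edgeR adjusted p = 2.79e-20), and the linker histone gene H1f0 rose by 0.46 (SE 0.06, adjusted p = 1.89e-08). Of 33 H2A.X kinases and readers 20 rose and 4 fell (median 0.33), and Mdc1 rose by 1.02 (SE 0.08, adjusted p = 5.3e-15). Of 21 formaldehyde clearance and crosslink repair genes 12 rose and 5 fell (median 0.42), and Adh5 fell by 0.91 on the log2 scale (SE 0.04, adjusted p = 1.9e-22). Of 18 p53 and damage targets 11 rose and none fell (median 0.47). These 3 lists rose in shares near the 53% of all genes called higher, with 17.3% called lower. Of 20 proliferation genes none rose and 2 fell (median -0.10). With TMM library sizes the counts were 1 higher and 6 lower for the variants, 11 and 9 for the kinases and readers, 8 and 5 for clearance and repair, 8 and 2 for the p53 targets, and 0 and 4 for proliferation. Per total reads they were 0 higher and 9 lower, 0 and 25, 1 and 12, 1 and 9, and 0 and 13 in the same order. Of all 13360 genes, 4574 were called higher and 4174 lower with TMM, and 876 higher and 9448 lower per total reads. The genes called higher in FFPE had a median transcript length of 3928 bases and those called lower 1783 bases, against 3173 bases for all tested. H2afx, at 1384 bases, is shorter than the median of those called lower.

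In the 48 mouse liver libraries, the genes closest to Kdm1a in log2 CPM among 7952 were Dcun1d4 (r 0.73, rho 0.67), Tmf1 (0.71 and 0.69) and Gckr (0.70 and 0.66), Gckr being the regulator of glucokinase. Closest to H2afx were Mlec (0.82 and 0.80), Ubqln2 (0.79 and 0.76) and AU040320 (0.78 and 0.72). None of these was among the 3 closest in AML12 cells. Between Kdm1a and H2afx both r and rho were 0.27. Libraries of the same mouse or preparation are not independent points.

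In rat tissue Kdm1a was listed at 0 in all 36 libraries, so no value is given for it. H2afx in rat liver was at 5.81, 7.62, 10.8, 8.33, 9.51 and 7.77 CPM in FR, from 11 to 25 counts a library, with a mean of 8.30 ± 1.70 (SD, n = 6). In FR > FFPE the 6 libraries held 6.26 to 13.4 CPM, with a median of 9.96 and a mean of 10.2 ± 2.64. These groups overlapped. In FFPE the 6 libraries held 61.97 to 76.1 CPM, with a median of 65.4 and a mean of 67.5 ± 5.77, all above every other rat liver library. The FFPE values rested on 29 to 79 counts in libraries of 139475 to 889128 counts.

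The rat liver tests gave a log2 change of H2afx of 3.00 in FFPE vs. FR (SE 0.21, edgeR adjusted p = 9.32e-12), where the median of all genes was 0.35 and 79.7% of genes were called. In FFPE vs. FR > FFPE it was 2.72 (SE 0.20, adjusted p = 3.52e-10), the smallest p of all 2281 genes, against a median of 0.07 and 53.8% called. In FR > FFPE vs. FR it was 0.28 (SE 0.21, adjusted p = 0.25), against a median of 0.37 and 71.3% called. With library totals, the median of all genes moved to 1.97, 0.98 and 1.08 in the same order, and H2afx to 4.65, 3.68 and 0.97 (adjusted p = 0.000636 for the last). Relative to the medians the values under library totals were 2.68, 2.69 and -0.11, near the 2.65, 2.65 and -0.09 under TMM. A change of library size nearly keeps this distance by construction. The hepatocyte marker sum, from 14 of 19 markers with counts, was 349362 to 476761 CPM in FR, 194184 to 332651 CPM in FR > FFPE and 44709 to 143807 CPM in FFPE. The parts of this and of the lower depth in the H2afx level were not tested.

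H2afx in rat lung was at 7.53, 10.4, 11.02, 9.15 and 7.52 CPM in FR, with a mean of 9.13 ± 1.61 (SD, n = 5). In FR > FFPE it was at 16.7, 7.31, 17.7, 17.2, 63.1 and 7.92 CPM, with a mean of 21.7 ± 20.8 (n = 6). Replicate 59, at 63.1 CPM from 116 counts, stood far above the others. In lung fixed for 1 year it was at 10.7 to 33.2 CPM, with a median of 23.1 and a mean of 22.5 ± 8.47 (n = 6), and both fixed groups overlapped FR. The log2 fold change against FR was 1.27 in FR > FFPE (SE 0.45, edgeR adjusted p = 0.0143, 77.4% of genes called) and 1.31 after 1 year (SE 0.46, adjusted p = 0.0143, 75.5% called). Without replicate 59 these were 0.56 (adjusted p = 0.123) and 1.32 (adjusted p = 0.000779). Between both fixed groups it was 0.04 (SE 0.42, adjusted p = 0.948, 31% called), and 0.76 (adjusted p = 0.0631) without that replicate. The median of all genes was 0.35 in FR > FFPE vs. FR and 0.24 after 1 year. Of 9 lung epithelial markers, 8 were listed, each at 0 in every rat lung library, so they gave no check of the tissue.

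**Figure D5:**
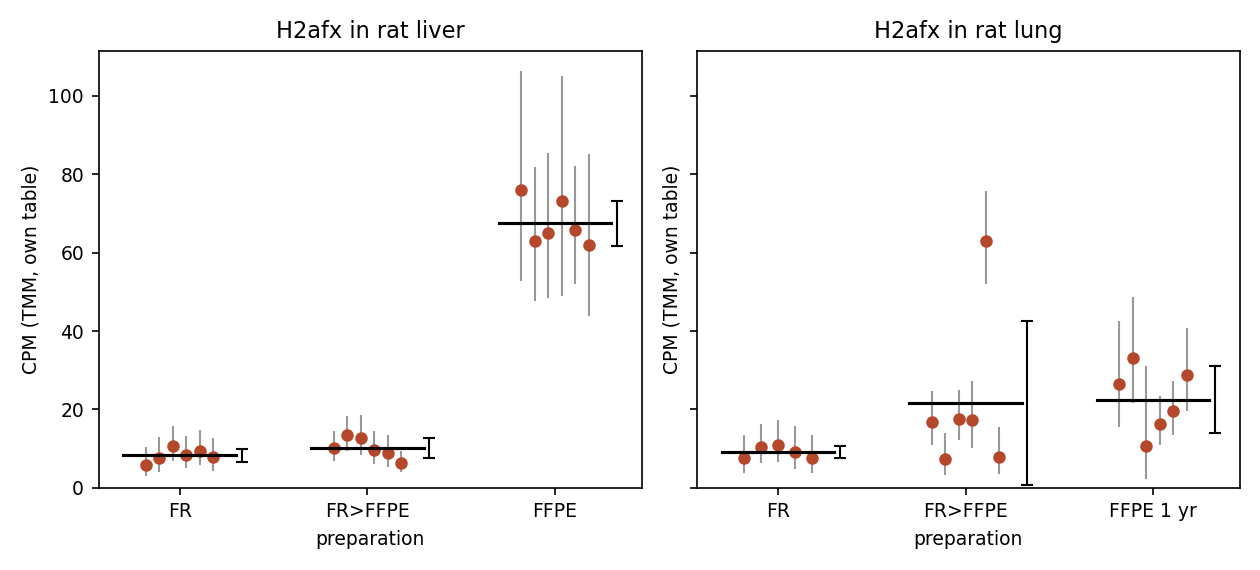
H2afx in rat liver (left) and rat lung (right) by preparation, in CPM with TMM library sizes set within each table, on a shared linear axis from 0. Points are libraries with 95% Poisson intervals, black lines the group mean and capped bars ± 1 SD (n = 6, and 5 for frozen lung). All 6 FFPE liver libraries lie at 61.97 CPM or above, and 1 lung library of FR > FFPE at 63.1 CPM.

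Neighbouring lists in rat liver were thinly covered by the panel. In FFPE vs. FR, the only other histone variant tested, H2afz, fell by 1.70 on the log2 scale (SE 0.18, edgeR adjusted p = 7.23e-09). Of all 2281 genes tested there, 1054 were called higher and 765 lower. Of 5 H2A.X kinases and readers 3 rose and none fell. Of 3 other demethylases 2 rose, Kdm5b by 1.47 (SE 0.25, adjusted p = 7.6e-06) and Kdm5a by 0.97 (SE 0.20, adjusted p = 8.76e-05). In rat lung after 1 year H2afz fell by 0.85 on the log2 scale (SE 0.29, adjusted p = 0.0112), Kdm5a rose by 0.54 (SE 0.14, adjusted p = 0.00168), and Kdm5b was at 0.29 (SE 0.15, adjusted p = 0.082). In that comparison 1022 of all 2322 genes were called higher and 732 lower.

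Side by side, the log2 ratio of H2afx against its own control was -1.55 in AML12 cells at 0.1% NBF, 0.66 in directly fixed mouse liver, 3.00 in directly fixed rat liver and 1.31 in rat lung after 1 year in formalin. The ratio of Kdm1a was 2.35 in AML12 cells and 0.21 in directly fixed mouse liver. In AML12 cells these are ratios of group means, with a fitted Kdm1a value of 2.48, and in tissue they are fitted log2 fold changes. Per total reads the mouse liver values turned to -0.29 for H2afx and -0.75 for Kdm1a. The AML12 values are those the genes were chosen by, and mouse liver was read as total RNA while the others were read by TempO-Seq. The tables were normalised separately and the exposures differed in length and strength, so the differences between these values were not tested.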

How the data were processed

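AML12, mouse liver, rat liver and rat lung tables were used. The values deposited by the authors are estimated counts per gene, not normalised, of which 98.96%, 92.19%, 99.11% and 99.04% were whole within 1e-9 in AML12, mouse liver, rat liver and rat lung. All were rounded to whole numbers. The submitters' processing notes name CASAVA 1.8.2, STAR 2.5.3a and Partek, with the mouse files on GRCm38. The log2 CPM deposited by the authors were used only to infer the total reads of each mouse liver library. This divisor was the median ratio of a gene's counts to its CPM. All values per total reads, and the share of reads on genes, rest on it. No column was left without a sample (0).

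Counts were fitted with edgeR 4.0.16 (R 4.3.3), quasi-likelihood test, with TMM and filterByExpr for TempO-Seq. In mouse liver, genes needed a geometric mean over 1 count (offset 0.0001), after the study's methods. Library size was the total over those genes. The divisor behind the authors' CPM was larger, and it is the total reads used here as an alternative. With a 2-fold criterion, FFPE vs. FR held 1733 genes higher and 256 lower in the main fit, against 130 and 3562 per total reads. The study reported nearly all of its genes in that comparison as lower. All groups of a table shared the dispersion, and a gene was called at a Benjamini-Hochberg adjusted p under 0.05 over all genes tested. The scripts were tested on simulated data. Group means of CPM in AML12 were compared without a test for the members. Intervals of single counts are exact Poisson intervals at 95%. Before averaging, the counts of each pair of replicates were compared by chi-square, which came to at least 2.556 per degree of freedom, so no library was counted as a repeat.

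Same-numbered mouse liver libraries come from the same mouse per the labels. The deviations from group means of 2 preparations of the same mouse correlated at a median r of 0.709 over 7694 genes (72 of 72 pairs above 0.1), against -0.126 between different mice. Members and gene lists were chosen with earlier results of these data known. Named were the members, up to 2 genes with the smallest p of each list in the contrast described, the 3 genes with the smallest p in AML12 at 0.1% NBF, and the 3 genes most correlated with each member on log2 CPM (prior count 2). Some genes that this rule selects are not reported here. Markers named as a check of the cells were chosen after their values were seen. Alternatives were other library sizes (TMM, DESeq2 size factors, totals), DESeq2 1.42.0, no filter, a further 2-fold criterion, the mouse as a block, lane, treatment groups alone and leaving out libraries. Sequences were cut from GRCm38 by coordinates in GENCODE M21.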

Additional observations from a re-analysis of the deposited data

Results flagged for a closer look

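The following 2 H2afx libraries stood apart from their group by Dixon's test at 95%, among 22 groups tested, and chance marks about 1 group in 20. In frozen liver of control mice (FR Con), replicate 8C was at 4.26 CPM from 52 counts, the next library at 3.24 CPM and the lowest at 2.92 CPM. Without it the change of H2afx with PB in FR was 0.86 (edgeR adjusted p = 0.0124), against 0.77 with it. In rat lung frozen and then fixed (FR > FFPE), replicate 59 was at 63.1 CPM from 116 counts, the next library at 17.7 CPM and the lowest at 7.31 CPM. The report gives the lung comparisons with and without it.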

How the results depend on the processing

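Of 518 alternatives, 457 kept the direction and side of the threshold, or a count within 1.5 times. In mouse liver vs. FR, Kdm1a in FFPE turned to -0.0728 with TMM, -0.0806 with DESeq2 sizes, -0.75 per total reads and -0.0719 with a lane term, and missed the threshold in Con mice (0.23, edgeR adjusted p = 0.0505) and PB mice (0.19, adjusted p = 0.107) alone. Kdm1a in FR > FFPE turned to -0.00662, -0.0172 and -0.0849 with TMM, DESeq2 sizes and total reads. In FR > OH it turned to -0.00834, -0.0233 and -0.16, and it missed the threshold without a filter (0.16), in Con (0.22) and PB (0.11) mice alone and without FR Con replicate 8C (0.16, adjusted p = 0.0653). Per total reads H2afx in FFPE turned to -0.29, FFPE vs. FR > FFPE passed at -0.66 for both genes with 11033 genes called, and Kdm1a with PB in FR > OH was at 0.0642. Paired by mouse, the median ratio of Kdm1a was -0.0596, -0.00821 and 0.00555 with TMM and -0.73, -0.14 and -0.19 per total reads in FFPE, FR > FFPE and FR > OH, and that of H2afx in FFPE -0.22 per total reads.

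With the mouse as a replicate block, the PB by preparation test called 1 gene for FFPE and 37 for FR > OH. With replicate block and total reads together, chosen after seeing the data, these were 1 and 16, FFPE vs. FR > FFPE called 11640 genes at -0.66 for both members, H2afx in FFPE was at -0.29 (adjusted p = 0.00869), and Kdm1a was at -0.75, -0.0882 and -0.16. The block with the main library size changed no call of either member. The AML12 libraries, whose numbers are not shared between doses, allowed no pairing.

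Adding a 2-fold criterion left 76 genes in AML12 at 0.1% NBF, 1989, 869 and 545 in FFPE, FR > FFPE and FR > OH vs. FR, 70 in FFPE vs. FR > FFPE, 267, 256, 249 and 323 for PB in FR, FFPE, FR > FFPE and FR > OH, 778 in rat liver FFPE vs. FR > FFPE and 297 in rat lung after 1 year vs. FR > FFPE. FFPE vs. FR > FFPE called 1842 genes in Con and 2111 in PB mice alone, and FFPE vs. FR called 5724 with a lane term. In AML12, no filter gave 1 call at 0.006% NBF. Leaving out each library gave 135 to 360 calls at 0.1%, of which 186 and 200 came without vehicle replicates 87 and 90, and 136 and 135 without 0.1% replicates 95 and 96, each fit with fewer samples. Without the 4 shallow libraries, chosen after seeing the data, H2afx at 0.006% was at -0.52 on 1 library. In rat liver FR > FFPE, H2afx passed at 0.97 with library totals. In rat lung, leaving out a frozen library or replicate 59 gave 0.56 to 1.35 in FR > FFPE, the lowest without replicate 59. Apart from the construction of the 2-fold, lane and smaller fits, the cause was not tested. Counts were low for Kdm1a in AML12 below 0.1% NBF and for H2afx in rat tissue and mouse liver.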
